A study of Mus musculus with 43 samples.

Results

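The Fc gamma receptors of the mouse, Fcgr1, Fcgr2b, Fcgr3 and Fcgr4, and the signalling chain Fcer1g were followed across 9 sorted immune cell types before and after injection of interferon alpha. The 5 genes were taken by symbol from the array's platform annotation, where each had 1 probe set, out of 19752 genes measured. The 43 samples were cells of male C57BL/6 mice aged 6 weeks, and the RNA of each was read on 1 Affymetrix array of the Mouse Gene 1.0 ST design. Interferon arrays came from mice given 10000 U of interferon alpha, an antiviral cytokine, under the skin 2 h earlier. Baseline arrays came from mice with no labelled treatment, and no vehicle injection is labelled. Of the 43 arrays, 26 were baseline and 17 interferon.

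All cells came from the spleen except the macrophages, which came from the peritoneal cavity. The labels give the sort markers as CD4+ for conventional CD4 T cells, CD8+ for CD8 T cells, CD4+ CD25+ for regulatory T (Treg) cells and TCRgd+ for gamma-delta T cells. NK cells were sorted as NK1.1+, with TCRb- added on some arrays, and NKT cells as NK1.1+, with TCRb+ added on some arrays. Dendritic cells were CD11c+ Flt3+, macrophages F4/80+ and neutrophils Ly6G+. Each type had 3 baseline arrays and 2 interferon arrays, but neutrophils had 2 baseline arrays and macrophages 1 interferon array. Whether the arrays of a group come from different animals is not labelled, and the p-values then measure only the spread between these arrays, which may be technical. The tissue of 4 arrays is in doubt. Baseline arrays 1 and 2 of CD8 T cells have blood as source under a spleen title, and baseline arrays 1 and 2 of macrophages have a spleen preparation under a peritoneal title. Baseline replicates 1 and 2 share a wording of the preparation (a stain) that no interferon array carries. The interferon arrays of CD4 T, NK and NKT cells share another that no baseline array carries, so preparation and treatment cannot be told apart in these types, and in neutrophils both baseline arrays carry the stain wording.

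Fc gamma receptors bind the constant part of IgG antibodies and so let cells take up, or react to, targets that antibodies have coated. Fcgr1 is the high-affinity receptor, and Fcgr3 and Fcgr4 bind IgG less tightly. All 3 signal through the FcR gamma chain, encoded by Fcer1g, whose ITAM motif recruits the kinase Syk. Fcgr2b is the inhibitory member, which carries an ITIM motif and recruits the phosphatase SHIP. Macrophages, neutrophils, monocytes and dendritic cells are the usual carriers, NK cells use Fcgr3 to kill antibody-coated cells, and conventional T cells are generally thought to carry little of any of them.

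Fcgr1 lies alone on chromosome 3 at chr3:96282909-96293969 in GRCm38.p6. The other 4 genes lie near each other on chromosome 1, Fcgr2b at chr1:170960558-170976071, Fcgr4 at chr1:171018926-171029761, Fcgr3 at chr1:171051169-171065915 and Fcer1g at chr1:171229572-171234349. The probe sets are numbered 10500335 for Fcgr1, 10360028 for Fcgr2b, 10351509 for Fcgr4, 10360040 for Fcgr3 and 10360070 for Fcer1g. Fcgr2b and Fcgr3 are known to be nearly identical in their extracellular parts. Probe sequences were not used here, and whether these probe sets share signal was not tested.

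Interferon alpha acts on genes through ISRE elements, interferon alpha and gamma can also act through GAS elements, and PU.1 is a myeloid transcription factor. The 250 bases before the transcript start of Fcgr1 and Fcgr4 are shown because these are the 2 members that rose after interferon. The sequences are RefSeq's (GRCm38.p6), 5' to 3' on the gene's own strand, and capitals mark motif matches. The Fcgr1 stretch is chr3:96293970-96294219 on the minus strand and the Fcgr4 stretch is chr1:171018676-171018925 on the plus strand.
Fcgr1: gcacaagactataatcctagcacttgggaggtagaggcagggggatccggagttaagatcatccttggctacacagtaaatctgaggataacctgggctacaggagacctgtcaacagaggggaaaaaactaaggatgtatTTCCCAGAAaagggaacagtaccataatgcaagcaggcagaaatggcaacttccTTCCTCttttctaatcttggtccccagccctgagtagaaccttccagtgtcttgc
Fcgr4: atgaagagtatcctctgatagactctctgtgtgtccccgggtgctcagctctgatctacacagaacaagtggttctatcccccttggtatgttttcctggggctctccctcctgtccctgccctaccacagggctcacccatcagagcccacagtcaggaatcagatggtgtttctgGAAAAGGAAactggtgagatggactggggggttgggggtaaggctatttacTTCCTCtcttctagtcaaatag

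The motifs were searched on both strands as GAAANNGAA for ISRE, TTCNNNGAA for GAS and GAGGAA for PU.1, in windows of 300 bases, 250 before the start and the rest after it. All 5 genes had a window, and Fcgr3 had 2. Fcgr1 held a GAS match, TTCCCAGAA, from -109 to -101, where -1 is the base before the start, and a PU.1 match from -55 to -50. Fcgr4 held an ISRE match, GAAAAGGAA, from -73 to -65 and a PU.1 match from -22 to -17. Fcgr3 held a PU.1 match alone in each window. Its 2 windows overlap, with upstream parts at chr1:171059395-171059644 and chr1:171059404-171059653, and the match is the same bases in both. Both windows lie inside the Fcgr3 span given above, so the bases before the 5' end of that span were not searched. Fcer1g and Fcgr2b held none of the 3 motifs. Of 32851 windows in the table, 8.56% held the ISRE letters, 8.30% the GAS letters and 28.3% the PU.1 letters. A match is a description of letters and not a bound site, and a window without a match says nothing about a factor.

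Of the 5 genes, Fcgr1 and Fcgr4 rose after interferon in dendritic cells, neutrophils and NKT cells, and Fcgr1 also rose in macrophages. Fcgr3 fell in NK cells. Fcer1g and Fcgr2b passed the test in no cell type. A gene was called when limma's adjusted p, taken over all 19752 genes, was below 0.05 and it changed by 1 or more in log2, which is 2-fold. In all, 7 of 45 pairs of gene and cell type were raised and 1 was lowered. Over all genes, 1.64% of such pairs were raised and 0.659% lowered. In bulk RNA, fewer cells that carry a gene and less of its RNA per cell cannot be told apart.

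By cell type, none of the 5 genes was raised in CD4 T cells (0.901% of all genes were), CD8 T cells (1.00%), Treg cells (1.11%) or gamma-delta T cells (1.53%). NK cells likewise had none raised, against 1.25% of all genes, and 1 lowered, against 0.537%. In NKT cells 2 of 5 were raised, against 2.89% of all genes. Dendritic cells had 2 of 5 raised, against 2.34%, macrophages had 1 of 5, against 1.35%, and neutrophils had 2 of 5, against 2.43%. The median change over the 5 genes was 1.26 in NKT cells and 1.16 in neutrophils, and between -0.14 and 0.21 in the other 7 types, while the median over all genes lay between -0.10 and 0.08. The NKT and neutrophil medians are the changes of Fcgr2b, which was called in neither type. In NKT cells that Fcgr2b change was 0.01 without interferon array 1.

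**Figure D1:**
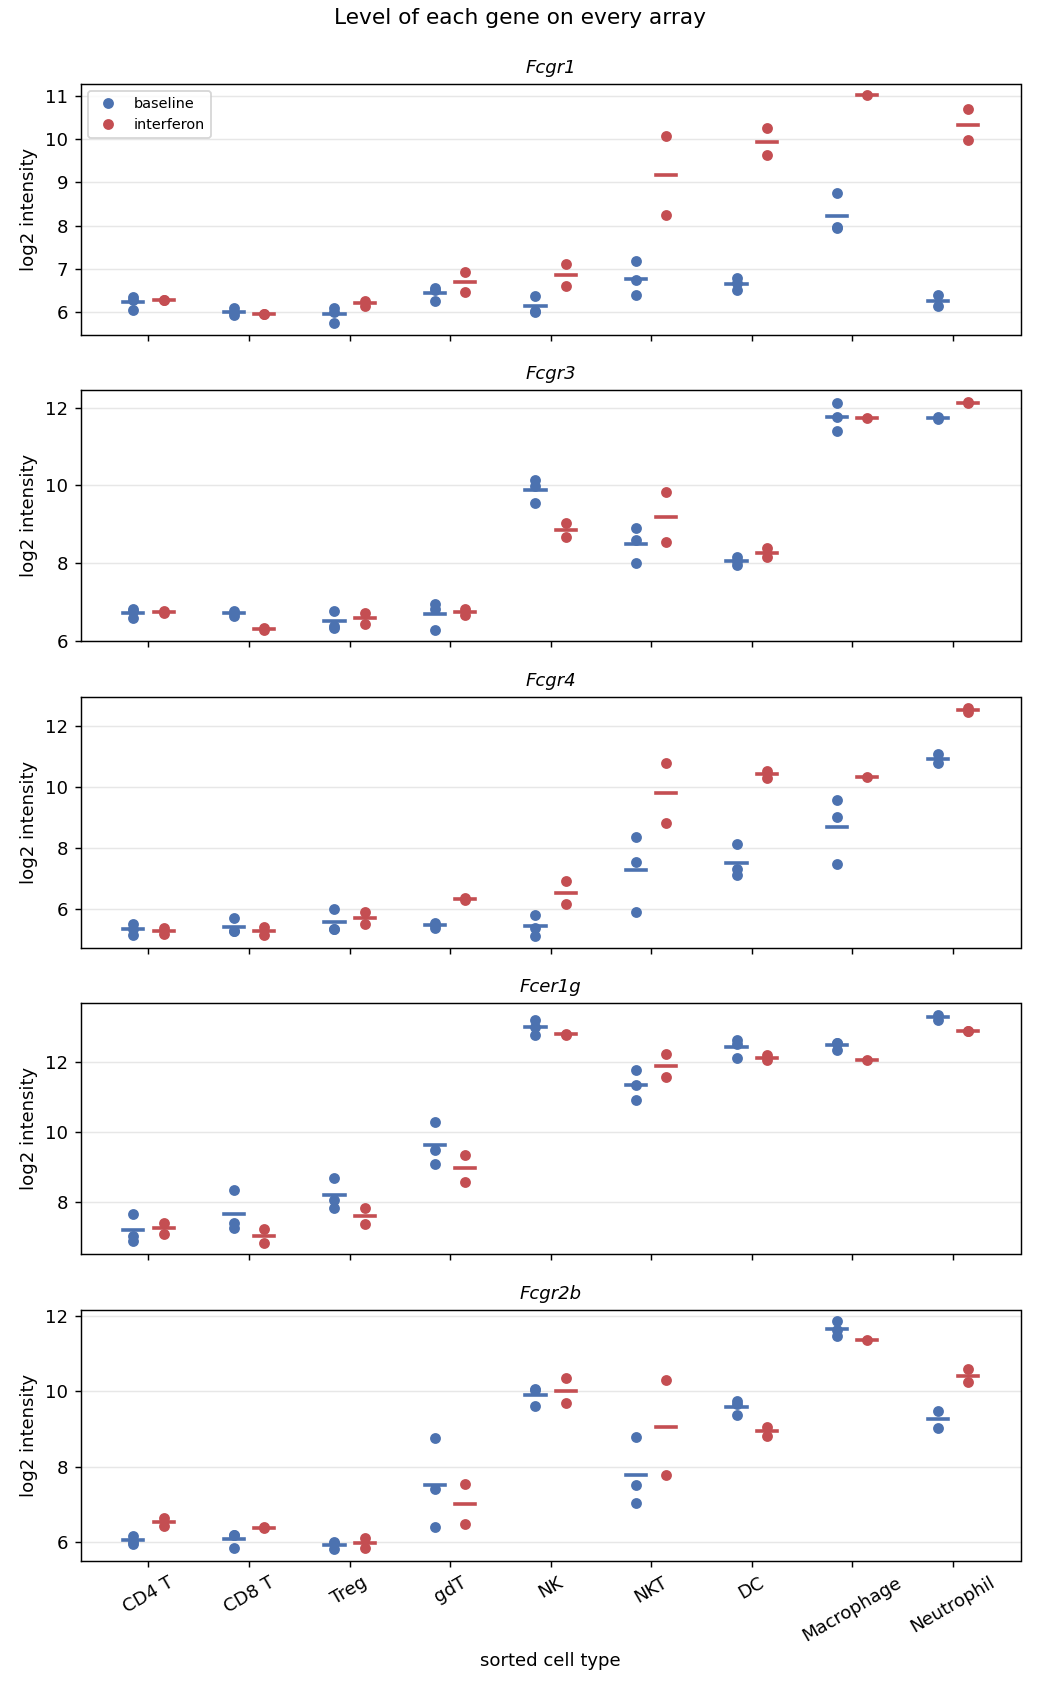
Level of each gene on every array, as log2 intensity (vertical axis, with its own scale in each panel), by sorted cell type (horizontal axis); points are arrays, blue for baseline and red for interferon, and short bars are group means. Fcgr1 rises from baseline levels of 6.14 and 6.41 to 9.98 and 10.68 in neutrophils, while its lymphocyte levels other than those of NKT cells stay at or below 7.12.

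Fcgr1, the high-affinity receptor, was low at baseline in every type but macrophages. Its log2 intensity in macrophages was 7.96, 7.95 and 8.75, a mean of 8.22 ± 0.456 (SD, n = 3). The other 8 types had means from 5.95 in Treg cells to 6.78 in NKT cells, and no macrophage array overlapped theirs. Below macrophages the order was NKT cells, dendritic cells, gamma-delta T cells, neutrophils, CD4 T cells, NK cells, CD8 T cells and Treg cells, and each of these overlapped its neighbour. The difference from macrophages was -1.56 in dendritic cells (SE 0.277, limma adjusted p = 3.339e-05) and -1.94 in neutrophils (SE 0.309, adjusted p = 4.252e-06).

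After interferon, Fcgr1 rose in all 3 myeloid types. Neutrophil arrays went from 6.14 and 6.41 to 9.98 and 10.68, a 16.7-fold rise (log2 change 4.06, SE 0.339, limma adjusted p = 6.701e-11). This was the 15th largest rise in neutrophils over all genes. Dendritic cell arrays went from 6.68, 6.51 and 6.80 to 9.62 and 10.25, which is 9.66-fold (log2 change 3.27, SE 0.309, adjusted p = 1.202e-09). The single macrophage interferon array stood at 11.01, 6.94-fold above its baseline mean (log2 change 2.80, SE 0.391, adjusted p = 8.03e-06). In each of these types all interferon arrays lay above all baseline arrays. The single macrophage array was assumed in the fit to vary like the other groups.

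NKT cells were the one lymphocyte type in which Fcgr1 was called. Their arrays were at 7.18, 6.40 and 6.74 at baseline and at 10.07 and 8.25 after interferon, a 5.22-fold rise (log2 change 2.38, SE 0.309, limma adjusted p = 9.972e-07). The interferon arrays lay above all baseline arrays, and array 1 was well above array 2. Leaving out interferon array 1 gave a change of 1.47 (adjusted p = 0.001825), and leaving out array 2 gave 3.30.

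In the other 5 lymphocyte types Fcgr1 was not called. NK cell arrays were at 6.04, 6.38 and 6.00 before and at 6.61 and 7.12 after, without overlap, but the change of 0.72 missed the threshold (SE 0.309, limma adjusted p = 0.2575). Gamma-delta T cells had 6.56, 6.27 and 6.52 before and 6.47 and 6.92 after, and these overlapped. The changes were 0.06 in CD4 T cells, -0.06 in the CD8 T cells and 0.26 in Treg cells, with adjusted p of at least 0.9579. The highest array of those 3 T cell types, in either state, was at 6.36.

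The interferon change of Fcgr1 differed among the types by test. The F statistic over the 9 types was 24.3 (limma adjusted p = 1.844e-08), and 4.16% of all genes passed this F test. The mean change in the 3 myeloid types exceeded that in the 6 lymphocyte types by 2.77 (SE 0.237, adjusted p = 6.423e-10), when 0.547% of all genes were called higher. This was the 1st of all genes by the size of that difference. Set against the mean of the other 8 types, the change was larger in neutrophils by 2.85 (adjusted p = 1.62e-06) and in dendritic cells by 1.96 (adjusted p = 0.0002586), where 1.04% and 0.896% of all genes were called higher. In CD8 T cells the difference from the other 8 types was -1.78 (adjusted p = 0.02265), and 0.0405% of all genes were called lower there. That call was lost without the 4 arrays of doubtful tissue (-1.81, adjusted p = 0.9999), and in CD4 T cells the difference was close to it but not called (-1.65, adjusted p = 0.05418). Averaged over the 9 types, Fcgr1 rose by 1.53 (SE 0.108, adjusted p = 1.433e-13), and 1.26% of all genes were raised on average.

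Fcgr4, an activating receptor that binds IgG2a and IgG2b, had another baseline order. Neutrophils were highest, with 10.78 and 11.06 (10.92 ± 0.196, SD, n = 2), and did not overlap any other type. Macrophages followed at 7.50, 9.01 and 9.59 (8.70 ± 1.08, SD, n = 3), then dendritic cells at 7.31, 7.13 and 8.14, and NKT cells at 8.38, 5.92 and 7.56. These 3 neighbours overlapped. The other 5 lymphocyte types had means between 5.36 and 5.57 and overlapped each other, and NKT cells reached down to the highest of them, Treg cells.

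The baseline gap of Fcgr4 between neutrophils and macrophages was 2.22 (SE 0.490, limma adjusted p = 0.0004272), a call in the opposite direction to that of Fcgr1 and Fcgr2b. It was 1.34 (adjusted p = 0.08074) without the 4 arrays of doubtful tissue, since macrophage arrays 1 and 2 were the lower ones. The difference of dendritic cells from macrophages was -1.18 (adjusted p = 0.05505), and -2.06 without those arrays (adjusted p = 0.00959).

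After interferon, Fcgr4 in dendritic cells reached 10.29 and 10.53, 7.39-fold above baseline (log2 change 2.89, SE 0.490, limma adjusted p = 7.876e-05). All interferon arrays lay above all baseline arrays. Set against baseline array 3 alone, the dendritic cell change was 2.27 and was no longer called (adjusted p = 0.06828). Neutrophils went to 12.45 and 12.58, which is 3.01-fold (log2 change 1.59, SE 0.537, adjusted p = 0.0489). The neutrophil arrays did not overlap, yet the call was lost when any 1 of the 4 arrays was left out (adjusted p from 0.1215 to 0.235) and with a term for the stain wording (change 1.07, adjusted p = 0.2401).

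Macrophages had a change of nearly the same size as neutrophils that was not called. Their interferon array stood at 10.33, above all 3 baseline arrays (log2 change 1.63, SE 0.620, limma adjusted p = 0.2599). In the fit without all NKT arrays the same change was called (adjusted p = 0.03975). In NKT cells Fcgr4 was at 10.77 and 8.83 after interferon, 5.70-fold above baseline (log2 change 2.51, SE 0.490, adjusted p = 0.0006578) and without overlap. That call was lost without interferon array 1 (change 1.54, adjusted p = 0.1621) and against baseline array 3 alone (2.24, adjusted p = 0.07536).

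Of the remaining lymphocytes, NK cells and gamma-delta T cells had Fcgr4 arrays that separated without passing the test. NK cells were at 5.12, 5.41 and 5.83 before and at 6.91 and 6.17 after (log2 change 1.09, SE 0.490, limma adjusted p = 0.293). Gamma-delta T cells were at 5.49, 5.39 and 5.56 before and at 6.38 and 6.32 after (0.87, adjusted p = 0.3757). All of these values were below 7, the level used here to mark dim genes. In CD4 T, CD8 T and Treg cells the changes ran from -0.14 to 0.15 and the arrays overlapped.

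Fcgr4 rose by 1.17 on average over the 9 types (SE 0.170, limma adjusted p = 1.577e-06), and by 0.81 with a term for the stain wording (adjusted p = 0.008551). The F test among types gave 4.88 (adjusted p = 0.01779). It did not pass with a variance trend and robust moderation (adjusted p = 0.0608), against baseline replicate 3 alone (adjusted p = 0.6184) or without dendritic cell interferon array 2 (adjusted p = 0.06499). The myeloid excess over lymphocytes was 1.30 (SE 0.376, adjusted p = 0.04934), but that call was lost in 33 of 42 fits that each left out 1 array. Dendritic cells exceeded the other 8 types by 1.93 (adjusted p = 0.04051), a call lost in 12 of those 42 fits.

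Fcgr3, the low-affinity activating receptor of NK cells and phagocytes, was called in no myeloid type after interferon. At baseline macrophages were at 11.40, 12.12 and 11.76 and neutrophils at 11.71 and 11.77, and they overlapped. NK cells came next at 9.56, 10.13 and 9.99 (9.89 ± 0.30, SD, n = 3), apart from both. NKT cells (8.50 ± 0.460, n = 3) and dendritic cells (8.06 ± 0.0921, n = 3) overlapped each other. The 4 T cell types had means between 6.50 and 6.73 and overlapped.

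In NK cells Fcgr3 fell to 9.03 and 8.67 after interferon, below all 3 baseline arrays, which is 2.07-fold lower (log2 change -1.05, SE 0.257, limma adjusted p = 0.01317). The change was -1.17 relative to the other 8 types (SE 0.274, adjusted p = 0.04665), where 0.132% of all genes were called lower, and that call was lost in 29 of 42 fits without 1 array. The change within NK cells was not called without baseline array 2 (-0.93, adjusted p = 0.0486, under the fold threshold), baseline array 3 (-0.997, adjusted p = 0.05659) or interferon array 2 (-0.87, adjusted p = 0.2718). Against baseline array 3 alone it was -1.14 (adjusted p = 0.1138).

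The markers of the NK sort were measured beside this fall. The mean log2 level of 7 NK markers was 12.17 to 12.27 at baseline and 11.90 to 12.02 after interferon, and that of 5 T cell markers was 8.26 to 8.57 and 8.37 to 8.50. Of the T cell markers, 4 of 5 were above 7 at baseline in the NK arrays. Their part in the fall of Fcgr3 was not tested.

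Elsewhere Fcgr3 passed the test in no type. Neutrophils went to 12.11 and 12.16, above both baseline arrays, with a change of 0.39 (limma adjusted p = 0.4316). Macrophages stood at 11.73 (change -0.03) and dendritic cells at 8.15 and 8.38 (change 0.21), both overlapping baseline. CD8 T cells were at 6.33 and 6.29, under all baseline arrays, with a change of -0.40 (adjusted p = 0.6932). NKT cells were at 9.83 and 8.55 and overlapped baseline (change 0.69, adjusted p = 0.09902). On average over the types the change was -0.00 (SE 0.0894, adjusted p = 0.9835), and the F test among types gave 3.62 (adjusted p = 0.07977).

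Fcer1g, the common signalling chain, was highest at baseline in neutrophils, at 13.18 and 13.35. NK cells had 13.19, 12.99 and 12.77 and overlapped them. Macrophages (12.47 ± 0.109, SD, n = 3) and dendritic cells (12.42 ± 0.281, n = 3) overlapped each other below that. NKT cells (11.33 ± 0.432, n = 3) and gamma-delta T cells (9.62 ± 0.605, n = 3) each stood apart from their neighbours, and Treg, CD8 T and CD4 T cells ended the order at 8.19, 7.65 and 7.19, with each neighbour overlapping.

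No interferon change of Fcer1g was called in any of the 9 types. The changes ran from -0.67 in gamma-delta T cells to 0.56 in NKT cells, and 2 of 9 were above 0. The average was -0.29 (SE 0.110, limma adjusted p = 0.05049). It was -0.04 with a term for the stain wording (adjusted p = 0.9115) and -0.04 against baseline replicate 3 alone. With the replicate number as a block it was -0.39 (adjusted p = 0.007984). So the size of this average depended on how preparation was handled. Neutrophils went from 13.18 and 13.35 to 12.89 and 12.88, and macrophages from 12.35, 12.54 and 12.53 to 12.06. In both types the interferon arrays lay below baseline, at changes of -0.38 (adjusted p = 0.5537) and -0.42 (adjusted p = 0.9308). They also did in CD8 T cells (-0.62, adjusted p = 0.486) and Treg cells (-0.60, adjusted p = 0.9755). With the term for the stain wording the changes were -0.03 in neutrophils, -0.18 in macrophages, -0.39 in CD8 T cells and -0.37 in Treg cells. So where Fcgr1 was raised up to 16.7-fold, the point estimate for its signalling partner lay between -0.42 and 0.56. The F test among types gave 1.52 (adjusted p = 0.6475).

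Fcgr2b, the inhibitory receptor, was highest at baseline in macrophages, at 11.48, 11.86 and 11.62 (11.65 ± 0.194, SD, n = 3), apart from all others. NK cells (9.90 ± 0.255, n = 3), dendritic cells (9.60 ± 0.192, n = 3) and neutrophils (9.27 ± 0.323, n = 2) followed, and each overlapped its neighbour. Whether the Fcgr3 probe set shares signal with this one was not tested, in NK cells or elsewhere. NKT cells were at 8.80, 7.03 and 7.53 and gamma-delta T cells at 7.42, 6.40 and 8.77, a wide spread in both. CD8 T, CD4 T and Treg cells had means of 6.08, 6.06 and 5.94.

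Fcgr2b was called in no cell type after interferon. Neutrophils went from 9.04 and 9.49 to 10.26 and 10.58, without overlap, a change of 1.16 that missed the threshold (SE 0.536, limma adjusted p = 0.181), though it was called without all NKT arrays (adjusted p = 0.04916). Dendritic cells went from 9.38, 9.67 and 9.75 to 9.06 and 8.82, also without overlap but downward, a change of -0.66 (SE 0.489, adjusted p = 0.6654). The macrophage interferon array was at 11.36, below its baseline arrays, with a change of -0.30. NK cells were at 10.06, 10.03 and 9.61 before and at 9.69 and 10.35 after, and they overlapped.

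Fcgr2b in NKT cells turned on 1 array. Its interferon arrays were at 10.31 and 7.79, a change of 1.26 (limma adjusted p = 0.1147). That change was 0.01 without interferon array 1, 2.52 without interferon array 2 (adjusted p = 0.001369) and 1.77 without baseline array 1 (adjusted p = 0.02744). Fcgr3 in the same cells was likewise 0.05 without interferon array 1 and 1.33 without array 2 (adjusted p = 0.001643). Over the 9 types the mean change of Fcgr2b was 0.21 (SE 0.170, adjusted p = 0.4067), with an F of 1.79 among types (adjusted p = 0.5302).

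**Figure D2:**
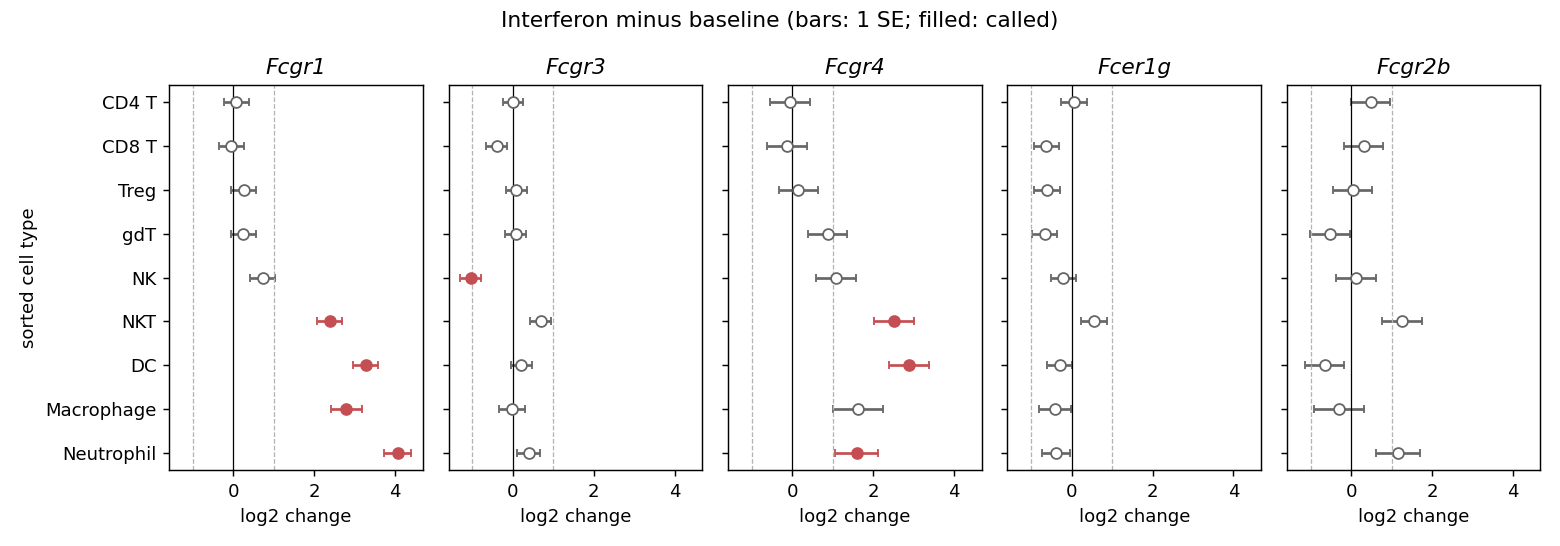
Interferon minus baseline change (horizontal axis, log2) of each gene in each sorted cell type (vertical axis); points are the fitted changes, bars are 1 SE, filled red points were called, and dashed lines mark a change of 1 in either direction. Fcgr1 is filled in 4 types with values from 2.38 to 4.06, Fcgr4 in 3 types, and Fcgr3 in NK cells at -1.05.

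All 5 genes differed among the cell types at baseline. The F statistic was 157.3 for Fcgr3, 139.4 for Fcer1g, 42.2 for Fcgr2b, 32.1 for Fcgr4 and 12.4 for Fcgr1, with the largest limma adjusted p being 2.536e-07. This is common, since 56.4% of all genes passed the same F test. Myeloid types exceeded lymphocyte types by 3.29 for Fcgr4, 3.22 for Fcer1g, 3.02 for Fcgr3 and 2.96 for Fcgr2b, which makes 4 of 5 genes called higher against 5.24% of all genes. Fcgr1 differed by 0.79 (adjusted p = 2.603e-05) and so stayed under the fold threshold.

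NK cells set apart Fcgr3, Fcer1g and Fcgr2b from the other 2 genes. NK cells exceeded the mean of the 4 T cell types by 4.82 for Fcer1g, 3.50 for Fcgr2b and 3.24 for Fcgr3, which makes 3 of 5 genes called higher against 2.51% of all genes. Whether the Fcgr2b and Fcgr3 probe sets share signal was not tested, so these may not be separate results. The NK differences of Fcgr1 and Fcgr4 were -0.02 and -0.01. Neutrophils compared with macrophages had 1 of 5 genes higher, Fcgr4, against 6.14% of all genes, and 2 of 5 lower, against 10.9%. The lower ones were Fcgr2b, at a difference of -2.39, and Fcgr1, at -1.94, while the difference of Fcgr3 was -0.02 (SE 0.257). Dendritic cells compared with macrophages had 3 of 5 genes lower, against 5.27% of all genes, namely Fcgr3 at -3.70, Fcgr2b at -2.06 and Fcgr1 at -1.56. The difference of Fcer1g was -0.06 (SE 0.283).

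Markers of each sorted type were highest in the arrays of that type. The macrophage marker mean was 12.04 to 12.15 in macrophages, the neutrophil mean 12.61 to 12.88 in neutrophils, the dendritic cell mean 10.83 to 11.06 in dendritic cells and the NK mean 11.90 to 12.27 in NK cells. The means of the CD4, CD8 and Treg lists were 10.11 to 10.99, 11.86 to 12.03 and 11.70 to 11.79 in their own arrays, and NKT arrays held both T cell markers (10.88 to 11.39) and NK markers (9.37 to 10.01). For gamma-delta T cells 1 marker, Sox13, was measured, at 7.83 to 8.48. Monocytes also carry Fc gamma receptors. The mean of their 3 measured markers was 7.45 and 7.47 in neutrophil baseline arrays and 8.14 and 7.86 in neutrophil interferon arrays, without overlap, so these markers were higher in the same arrays as Fcgr1 and Fcgr4. In macrophages it was 6.88, 7.20 and 8.04 at baseline, in the same order as Fcgr4, and 7.80 after interferon. In neutrophils 1 of the 3 markers was above 7 at baseline and in macrophages 2 of 3. The part of these markers in the results was not tested.

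Macrophage markers were high in the NKT arrays relative to other lymphocytes. The mean of 11 macrophage markers was 8.97, 7.66 and 8.49 in NKT baseline arrays and 9.43 and 8.46 in NKT interferon arrays, with 8 of 11 above 7 at baseline. In the other lymphocyte types it lay between 5.95 and 7.13. The NKT array with the highest macrophage markers was also the highest NKT array for Fcgr1, Fcgr2b, Fcgr3, Fcgr4 and Fcer1g. Their part in the NKT results was not tested.

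B cell markers moved with Fcgr2b in gamma-delta T cells. The mean of 9 B cell markers was 8.97, 7.95 and 10.27 in the baseline arrays, where Fcgr2b was at 7.42, 6.40 and 8.77, and 9.71 and 7.92 in the interferon arrays, where Fcgr2b was at 7.55 and 6.48. All 9 markers were above 7 there at baseline. The mean of 7 NK markers in the same arrays was 9.60, 8.42 and 7.64 before and 7.92 in both arrays after, beside Fcer1g at 10.28, 9.49 and 9.09 and then 8.56 and 9.34. The part of either marker set in these levels was not tested. In neutrophils the B cell mean was 8.15 to 8.86 at baseline and 6.47 to 6.52 after interferon, so that Fcgr2b was higher where those markers were lower. In dendritic cells, where Fcgr2b changed by -0.66, the B cell mean was 7.33 to 7.89 at baseline and 7.03 to 7.09 after. The macrophage marker mean there was 8.65 to 8.93 at baseline and 8.36 to 8.51 after. The part of these markers in the dendritic cell level of Fcgr2b was not tested.

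**Figure D3:**
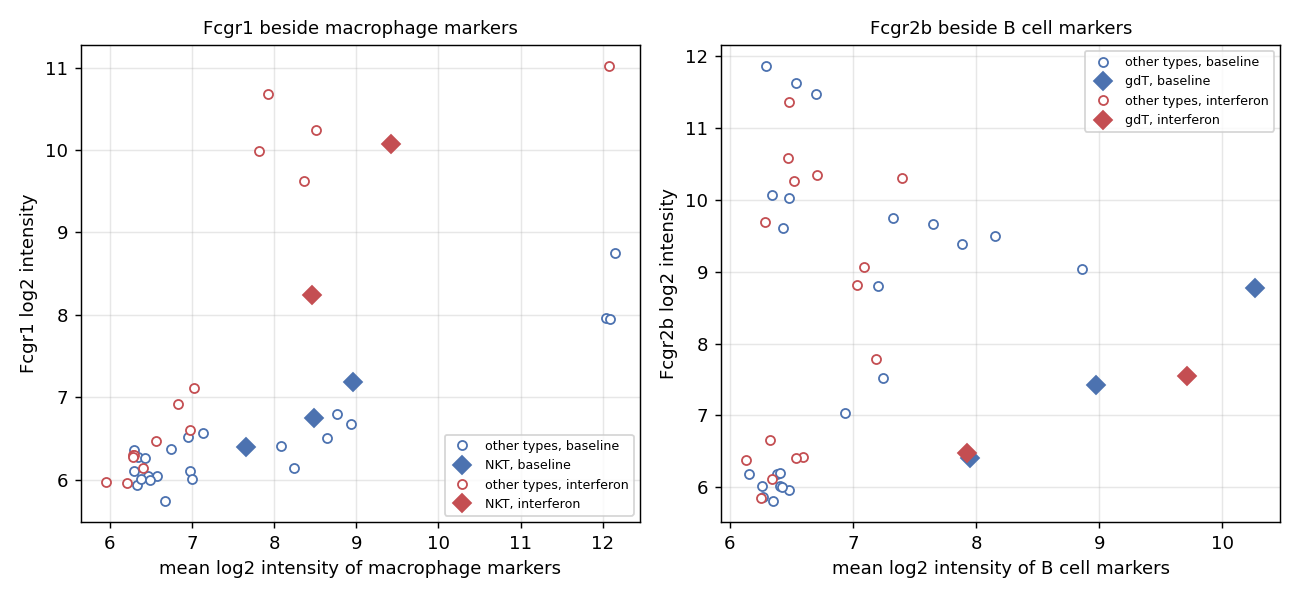
Left, Fcgr1 against the mean of 11 macrophage markers, and right, Fcgr2b against the mean of 9 B cell markers, each axis in log2 intensity; each point is an array, diamonds are NKT cells (left) or gamma-delta T cells (right), circles are all other types, blue is baseline and red is interferon. NKT diamonds lie between 7.66 and 9.43 on the marker axis, where dendritic cells and neutrophils also lie, and gamma-delta T cell diamonds rise with the B cell markers from 6.40 to 8.77.

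The balance of activating to inhibitory receptor was described as the change in the log2 ratio of each gene to Fcgr2b within the same array, without a test. The Fcgr1 ratio rose by 3.93 in dendritic cells, 3.09 in macrophages, 2.90 in neutrophils and 1.12 in NKT cells, and in all 4 every interferon array exceeded every baseline array. Macrophages had 1 interferon array, so a lack of overlap there rests on 1 value. The Fcgr4 ratio rose by 3.54 in dendritic cells, 1.93 in macrophages, 1.25 in NKT cells and 0.43 in neutrophils, again without overlap. For Fcgr3 the ratio was higher in dendritic cells (0.87) and macrophages (0.27) and lower in NK cells (-1.17) and neutrophils (-0.76), without overlap in any. The macrophage change of 0.27 was smaller than the spread of the baseline Fcgr3 ratios there, 0.34. Likewise the macrophage change of 1.93 for Fcgr4 did not exceed the spread of its baseline ratios, 1.94. The Fcer1g ratio changed by -1.53 in neutrophils, also without overlap. Smaller changes without overlap were seen in lymphocytes. In CD8 T cells all 4 ratios were lower (-0.36 for Fcgr1, -0.71 for Fcgr3, -0.45 for Fcgr4 and -0.93 for Fcer1g), and in CD4 T cells those of Fcgr3 (-0.48), Fcgr4 (-0.54) and Fcer1g (-0.42) were. The Fcer1g ratio was also lower in Treg cells (-0.64), and the Fcgr1 ratio was higher in NK cells (0.60). The Fcer1g changes in CD4 T, CD8 T and Treg cells were smaller than the spreads of their baseline ratios (0.57, 1.10 and 0.88). In CD4 T and CD8 T cells Fcgr1, Fcgr2b, Fcgr3 and Fcgr4 were below 7, the dim level, on every array. Their ratios there compare dim values, and the Fcer1g ratio has a dim denominator, as it has in Treg cells. All ratios of a cell type share Fcgr2b, so they are not separate observations. A ratio of this kind shows unequal change and does not by itself show which of the genes moved. In neutrophils Fcer1g changed by -0.38 and Fcgr2b by 1.16, neither called. In dendritic cells Fcgr3 changed by 0.21 and Fcgr2b by -0.66, also neither called. In NK cells Fcgr3 changed by -1.05 and Fcgr2b by 0.12. Signal shared between these 2 probe sets was not tested.

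**Figure D4:**
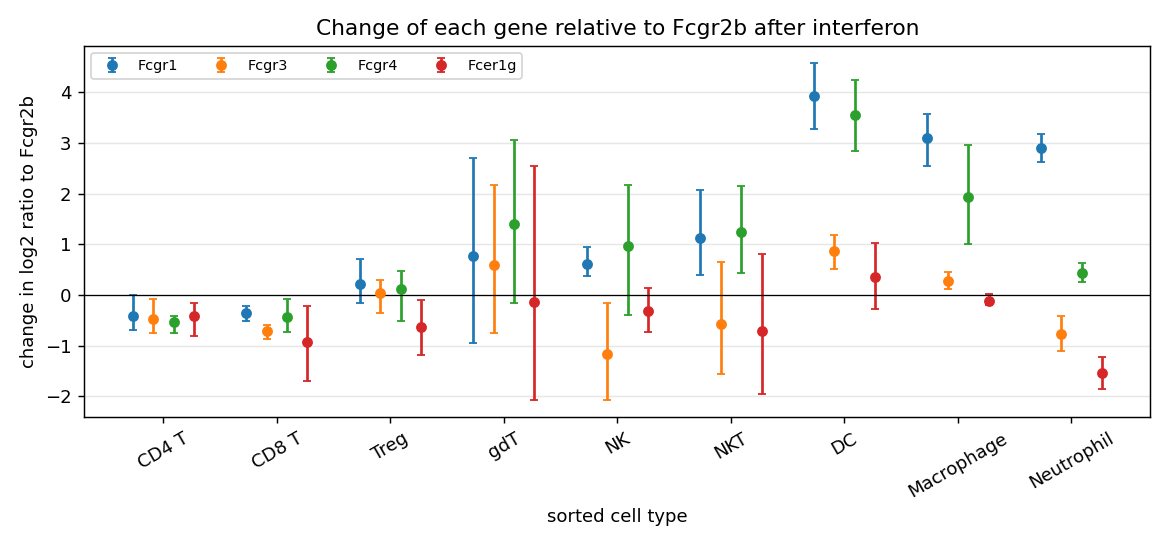
Change after interferon in the log2 ratio of Fcgr1, Fcgr3, Fcgr4 and Fcer1g to Fcgr2b (vertical axis) by sorted cell type (horizontal axis); points are differences of group means, and bars run from the lowest to the highest difference between an interferon and a baseline array. Fcgr1 and Fcgr4 are the highest 2 points in dendritic cells, at 3.93 and 3.54, while Fcgr1 alone stands above 1 in neutrophils.

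Genes that work with these receptors were counted over pairs of gene and cell type, of which 1.64% were raised and 0.659% lowered over all genes. Of 25 measured ITAM kinases and adaptors, which relay the signal of activating receptors, none was raised or lowered in CD4 T, CD8 T, Treg or dendritic cells or in macrophages, and none was lowered in any type. In all, 5 of 225 pairs (2.22%) were raised, which is near the share over all genes. Sos1, an exchange factor for Ras, rose in gamma-delta T cells (1.76) and, by 1.33 and 2.22, in NK and NKT cells, Vav3 rose in NKT cells (1.26), and Tec, a kinase, rose in neutrophils (1.51). The list's median change lay between -0.31 and 0.07 over the 9 types. Syk, the kinase bound by the FcR gamma chain, changed by -0.31 in neutrophils and -0.65 in dendritic cells and was called in neither. Of 10 inhibitory signalling genes, Csk in neutrophils (-1.37) was the only call, and Inpp5d, which encodes SHIP, changed by -0.24 on average (limma adjusted p = 0.0807). That is 1 of 10 genes called in at least 1 type, near the 9.9% of all genes. Of 5 measured receptors that also pair with the FcR gamma chain, none was called in any type, with list medians from -0.13 to 0.54. With so few genes, this count is not set apart from that share.

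Of 11 other Fc receptors measured, 8 were called in no type. The other 3 (27.3%) were called in at least 1 type, against 9.9% of all genes. Trim21, an antibody receptor inside the cell, was raised in all 9 types, by 1.32 in NK cells to 3.25 in neutrophils, and by 2.10 on average (SE 0.0831). Fcmr, the IgM receptor, and Fcer2a, the low-affinity IgE receptor, fell in neutrophils, at changes of -3.07 and -2.49. Both are also expressed by B cells, whose markers fell in the same arrays as given above, and their part was not tested. Fcer2a is itself 1 of those 9 B cell markers, so its fall is part of theirs. Of 6 measured phagocyte oxidase genes, Cybb, the catalytic subunit, rose in Treg cells (2.06), gamma-delta T cells (2.41) and NKT cells (2.06) but was not called in dendritic cells, macrophages or neutrophils, and Ncf1 fell in neutrophils (-1.03). These 2 genes are 33.3% of that list, against 9.9% of all genes called in at least 1 type.

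Among 8 measured transcription factors of interferon and myeloid programmes, Stat2 was raised in all 9 types, from 2.04 in NK cells to 3.31 in neutrophils. Irf1, which binds ISRE-like elements, was raised in CD8 T cells (1.12), dendritic cells (1.30), macrophages (2.38) and neutrophils (1.41), and Irf9 in CD4 T cells (1.07), Treg cells (1.00) and NK cells (1.32). Irf8 was raised in NKT cells (1.17) and Cebpb fell in neutrophils (-1.35). So 5 of 8 genes (62.5%) were called in at least 1 type, against 9.9% of all genes. Spi1, which encodes PU.1, changed by -0.64 in neutrophils, -0.54 in dendritic cells and -0.08 in macrophages and was called in none of them.

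The genes whose levels followed each receptor most closely over the 18 group means are given as a description, since the groups share arrays, platform and normalisation. For Fcgr1 they were Pnp (Pearson r 0.943), Il18 (0.931) and Acer3 (0.907). Fcgr3 was nearest to Tirap (0.970), Itgam (0.960) and Tlr4 (0.952), and Fcgr4 to Pde7b (0.968), P2ry12 (0.965) and Slc15a3 (0.964). For Fcer1g they were Tyrobp (0.987), which encodes the related ITAM adaptor DAP12, Plcg2 (0.967) and Syk (0.957). Fcgr2b was nearest to Zeb2 (0.970), Lrmda (0.962) and Tyrobp (0.943). Over the 9 interferon changes, Fcgr1 was nearest to Ccdc86 (0.973), Ccnl1 (0.972) and Marchf5 (0.966), and Fcgr4 to Tiparp (0.959), Atf3 (0.937) and Il15 (0.933). For Fcgr3 the nearest were Hsdl2 (0.884), Pgm2l1 (0.883) and Cdc14a (0.879). The change of Fcgr3 did not differ among types by limma's F test (adjusted p = 0.07977). Each r over 9 points is among the highest in a search of all genes called in at least 1 type. How high such values run by the search alone was not tested.

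The genes beside the receptors were counted too, where 9.9% of all genes were called in at least 1 type. Of 8 measured genes among the 5 on either side of Fcgr1, none was raised or lowered in any type, and the largest rise was 0.89, in H2bc18. Around the 4 genes on chromosome 1, 13 other genes were measured and 1 was raised, Cfap126 in dendritic cells (1.20), which lies next to Fcgr3. With so few neighbours, these counts do not set them apart from genes at large. Fcgr2b and Fcgr3, on either side of Fcgr4, were raised in no type.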

How the data were processed

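RNA of 43 sorted cell samples was measured on 1-colour Affymetrix arrays. The deposited values are linear intensity values, 1 for each probe set on an array. Per the submitters' processing notes Affymetrix Power Tools and RMA were used. For their versions and the build, nothing is given in the sources used here. Values ran from 4.69 to 22042 with array medians of 104.7 to 125.1, and were log2-transformed here with no further scaling. Of 24922 probe sets, 21425 carried 1 gene symbol, 1399 several and 2098 none. The brightest probe set per symbol was used, which left 19752 genes. Symbols come from the platform annotation, which can be old. Detection calls were not used. Precision is limited by the number of arrays.

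One model with a mean for each of the 18 groups was fitted in limma 3.58.1 (R 4.3.3, 25 residual degrees of freedom), and p-values are two-sided and Benjamini-Hochberg adjusted over all 19752 genes within a comparison. Levels of different genes were not compared, since probes differ. The fit was tested on simulated data.

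The genes named were the 5 members in every type, up to 4 called genes of each of 6 gene lists (those with the largest change), the 3 genes most like each member, and the 5 annotated neighbours on either side. Syk, Inpp5d and Spi1 were named outside this rule, after their values were seen. All 5 called transcription factors were named, so Irf8, with the smallest change of them, is also outside it. The members and lists were chosen with earlier results of these data known.

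Alternatives were a term for the stain wording of baseline replicates 1 and 2 (1 degree of freedom, which leaves the wording of the CD4 T, NK and NKT interferon arrays unadjusted), baseline replicate 3 alone, the replicate number as a block, quantile normalisation, a robust moderation with a variance trend, the 12349 genes that reached a log2 level of 7 in 2 arrays or more, the mean of probe sets and each array left out in turn. After seeing the data, fits without the 4 arrays of doubtful tissue and without all NKT arrays were added.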

Additional observations from a re-analysis of the deposited data

Results flagged for a closer look

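The change of Fcgr1 in 3 cell types passed limma's test of its difference from the mean change of the other 8. The difference was 2.85 in neutrophils (SE 0.357, adjusted p = 1.62e-06), 1.96 in dendritic cells (SE 0.330, adjusted p = 0.0002586) and -1.78 in CD8 T cells (SE 0.330, adjusted p = 0.02265). Other T cells had nearly the same difference, which was -1.65 in CD4 T cells (adjusted p = 0.05418), -1.44 in gamma-delta T cells (adjusted p = 0.11) and -1.43 in Treg cells (adjusted p = 0.1187). The CD8 T cell call was lost without the 4 arrays of doubtful tissue (-1.81, adjusted p = 0.9999). The change of Fcgr4 in dendritic cells exceeded that of the other 8 types by 1.93 (SE 0.523, adjusted p = 0.04051), but not past the threshold with a variance trend and robust moderation (adjusted p = 0.08441). For Fcgr3 in NK cells the difference was -1.17 (SE 0.274, adjusted p = 0.04665), and it was lost after quantile normalisation (-1.09, adjusted p = 0.07853). Each comparison of a type with the other 8 uses the same 43 arrays, so these differences are not independent of each other.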

How the results depend on the processing

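No member's call changed direction under the alternatives run. The 4 Fcgr1 calls within cell types held in all of them that could be fitted, while Fcgr4 did not. With a term for the stain wording the mean change of Fcgr4 was 0.81. Against baseline replicate 3 alone, which leaves out neutrophils, Fcgr4 had a mean change of 0.77, a myeloid minus lymphocyte difference of 0.98 and an F among types of 2.45 (adjusted p = 0.6184), and 3 pairs were raised and 0 lowered. With the replicate block the Fcgr4 difference was 1.21 (adjusted p = 0.05097), Fcgr3 in NK cells was -0.99 (adjusted p = 0.02163) and 0 pairs were lowered. Deviations of same-numbered arrays correlated above 0.1 in both pairs of NK cells (0.128 and 0.336) and NKT cells (0.264 and 0.317). In neutrophils the correlation was 0.347, and with 2 arrays in each state both pairs must give the same value. In the other types the correlations went down to -0.301. The labels name nothing that the numbers share, so they were not taken to pair the samples. The Fcgr4 difference was 1.26 after quantile normalisation, 1.30 with a variance trend and robust moderation (adjusted p = 0.09565), where the F was 4.11 (adjusted p = 0.0608), and 1.05 without the 4 arrays of doubtful tissue. Without all NKT arrays the F of Fcgr3 was 5.08 (adjusted p = 0.02101). Leaving out each array in turn gave 1.10 to 1.46 for the Fcgr4 difference, an F of 4.0 to 6.89 for Fcgr4, 2.38 to 6.79 for Fcgr3 and 1.49 to 4.31 for Fcgr2b, 6 to 9 pairs raised and 0 to 1 lowered. The cause was not tested in these cases. Dim genes left out and the mean of probe sets moved 1 call between them, of Fcgr4 in dendritic cells against macrophages at baseline (-1.18, adjusted p = 0.04178).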
